A study of Mus musculus with 4 samples.

Results

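Chemoreceptor genes encode the receptors that detect odorants and pheromones, and they form very large families in the mouse. Their methylation in pancreatic islets was described here from 557 methylated regions, of 180857 regions on chromosomes 1 to 19. The assay was MeDIP-seq, in which sheared DNA is pulled down with an antibody against methylated cytosine and then sequenced. Peaks, the stretches where tags were denser than the local background, had been called in each library by the authors. Peaks of any library that overlapped by at least 1 bp were joined into a region. A region was kept when it overlapped the body, or the 2 kb either side, of a protein-coding gene whose symbol begins with Olfr, Vmn1r, Vmn2r or Taar. The choice used gene symbols and positions only, and no comparison of genotypes.

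The islets came from mice 8 weeks old of 2 genotypes, with 2 libraries each. WT islets carried the floxed alleles alone (Raptor lox/lox), and βRapKO islets carried the same alleles with RipCre (Raptor lox/lox; RipCre), which deletes Raptor, the scaffold of mTORC1. Cre is driven by a rat insulin promoter, so that the deletion is aimed at beta cells while the islets also held alpha and other cells. The controls had no Cre. The labels name the background C57BL/6, whereas the study's methods give a mixed C57BL/6J and 129/SvJ origin for the RipCre mice. The labels do not say whether the libraries came from different mice, so p-values measure only the spread between these libraries, which may be technical. In whole islets, a change of methylation within beta cells cannot be told apart from a change in the share of beta cells.

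Each library held 25585533 to 31330751 tags after removal of duplicates. Of these, 31.97% and 35.43% lay in peaks in WT, and 29.22% and 30.99% in βRapKO. The median enrichment of peaks over the local background was 7.27 and 7.3 in WT and 6.9 and 6.87 in βRapKO. Both measures were thus lower in each βRapKO library than in either WT library. WT replicate 2 was the deepest library and had 151093 peaks, the narrowest ones, against 117638 to 121186 in the other libraries. Counts are given as CPM, that is, per 1000000 tags that remained once duplicates had been removed. A region without a peak in a library has no count there and is listed at 0, which does not mean that it held no tags. A region lay within 500 bp of the start site of 0 of 12 islet markers and of 3 of the 8 exocrine and duct markers found in the annotation. Of protein-coding genes outside the chemoreceptor families, 13.8% had one there, so these few markers cannot check the tissue. At the targeted gene, Rptor, the region with the most tags held 9.69 and 9.86 CPM in WT and 7.70 and 9.43 CPM in βRapKO (adjusted p = 0.866, edgeR's quasi-likelihood test). A tag count of methylated DNA does not check the deletion.

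Olfactory receptors (Olfr) are made by sensory neurons of the nose, each of which expresses a single member, and nearly all of them are encoded in 1 uninterrupted coding exon. Vomeronasal receptors of type 1 (Vmn1r), also with an uninterrupted coding exon, and of type 2 (Vmn2r), whose coding sequence is split over several exons with a long extracellular part, serve the vomeronasal organ. Trace amine-associated receptors (Taar) detect volatile amines. Most of these genes lie in tandem arrays that grew by duplication, and outside the sensory organs they are, with some exceptions, silent. DNA methylation in mammals falls almost entirely on the C of a CpG, and MeDIP recovers a stretch the better the more methylated CpG sites it holds.

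The sequences below are examples of the kinds of region described, as windows of 300 bases of GRCm38 (mm10). They are on the strand of the gene, 5′ to 3′, with every CpG in capitals. Each is the window with the most CpG sites that held no annotated untranslated base. Those of Taar2 and Olfr544 are coding sequence under a region called in all 4 libraries, and those of Taar7a and Olfr821 are coding sequence of the same families without a region. Olfr94 holds the most CpG sites of all Olfr coding sequences and had no region. The regions at Olfr71 and Olfr65 were called in WT only and in βRapKO only. Vmn2r35 held the region with the most tags, and Olfr1155 the one with the largest rise in βRapKO.
Taar2 (chr10:23940781-23941080, plus strand): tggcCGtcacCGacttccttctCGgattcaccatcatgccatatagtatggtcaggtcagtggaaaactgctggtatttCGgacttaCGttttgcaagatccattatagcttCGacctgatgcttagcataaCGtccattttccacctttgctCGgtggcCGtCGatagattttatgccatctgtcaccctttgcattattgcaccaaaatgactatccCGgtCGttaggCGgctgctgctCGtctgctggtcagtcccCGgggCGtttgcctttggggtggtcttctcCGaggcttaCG
Taar7a (chr10:23992408-23992707, minus strand): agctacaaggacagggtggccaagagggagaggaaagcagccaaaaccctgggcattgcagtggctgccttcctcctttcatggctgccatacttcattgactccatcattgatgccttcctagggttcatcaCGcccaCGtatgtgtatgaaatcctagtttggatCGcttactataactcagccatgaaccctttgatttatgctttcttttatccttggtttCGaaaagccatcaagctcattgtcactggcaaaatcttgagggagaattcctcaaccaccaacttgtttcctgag
Olfr544 (chr7:102484309-102484608, minus strand): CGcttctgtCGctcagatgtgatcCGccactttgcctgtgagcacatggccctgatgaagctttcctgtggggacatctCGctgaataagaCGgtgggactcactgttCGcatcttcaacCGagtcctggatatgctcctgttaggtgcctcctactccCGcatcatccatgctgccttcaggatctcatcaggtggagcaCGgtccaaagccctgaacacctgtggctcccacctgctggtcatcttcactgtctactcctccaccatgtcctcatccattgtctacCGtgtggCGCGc
Olfr821 (chr10:130033687-130033986, plus strand): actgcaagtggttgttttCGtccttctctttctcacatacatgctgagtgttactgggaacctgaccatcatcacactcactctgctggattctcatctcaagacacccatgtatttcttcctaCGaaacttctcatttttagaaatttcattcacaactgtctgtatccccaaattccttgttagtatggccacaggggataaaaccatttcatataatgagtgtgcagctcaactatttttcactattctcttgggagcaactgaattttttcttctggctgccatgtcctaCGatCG
Olfr94 (chr17:37197129-37197428, minus strand): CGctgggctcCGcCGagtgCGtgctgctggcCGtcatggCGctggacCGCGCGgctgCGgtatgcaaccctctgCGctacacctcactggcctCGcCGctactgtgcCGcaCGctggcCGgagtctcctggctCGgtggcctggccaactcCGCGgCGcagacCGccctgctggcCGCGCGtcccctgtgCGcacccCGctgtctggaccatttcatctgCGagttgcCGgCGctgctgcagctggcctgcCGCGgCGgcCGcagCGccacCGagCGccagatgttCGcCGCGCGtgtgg
Olfr71 (chr4:43706199-43706498, minus strand): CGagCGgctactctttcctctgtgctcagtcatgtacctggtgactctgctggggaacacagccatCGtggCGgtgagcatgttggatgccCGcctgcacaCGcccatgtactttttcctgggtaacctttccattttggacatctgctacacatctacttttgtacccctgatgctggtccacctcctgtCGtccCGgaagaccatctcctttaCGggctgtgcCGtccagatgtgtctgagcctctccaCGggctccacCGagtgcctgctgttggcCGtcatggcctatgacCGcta
Olfr65 (chr7:103906731-103907030, plus strand): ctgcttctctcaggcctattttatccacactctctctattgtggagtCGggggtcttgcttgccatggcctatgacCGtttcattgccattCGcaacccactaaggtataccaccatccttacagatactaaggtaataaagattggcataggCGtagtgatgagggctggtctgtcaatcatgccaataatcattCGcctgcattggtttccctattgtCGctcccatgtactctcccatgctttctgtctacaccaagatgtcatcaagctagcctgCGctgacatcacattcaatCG
Vmn2r35 (chr7:7794293-7794592, minus strand): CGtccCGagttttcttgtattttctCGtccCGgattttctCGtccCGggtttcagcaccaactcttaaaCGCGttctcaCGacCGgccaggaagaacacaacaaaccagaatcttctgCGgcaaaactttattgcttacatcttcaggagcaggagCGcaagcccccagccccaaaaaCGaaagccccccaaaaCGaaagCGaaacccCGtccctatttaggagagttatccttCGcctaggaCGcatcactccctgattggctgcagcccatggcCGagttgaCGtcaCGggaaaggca
Olfr1155 (chr2:87940938-87941237, minus strand): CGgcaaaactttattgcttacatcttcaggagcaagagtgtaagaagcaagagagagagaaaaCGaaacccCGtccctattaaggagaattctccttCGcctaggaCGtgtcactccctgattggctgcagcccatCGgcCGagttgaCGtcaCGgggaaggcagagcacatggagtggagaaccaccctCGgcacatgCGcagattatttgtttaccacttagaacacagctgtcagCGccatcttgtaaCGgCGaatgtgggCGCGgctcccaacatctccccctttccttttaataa
The windows of Taar2, Olfr544, Olfr94 and Vmn2r35 held 18, 12, 40 and 21 CpG sites, and those of Taar7a and Olfr821 held 4 each. Olfr71, Olfr65 and Olfr1155 held 14, 8 and 16. The windows of Vmn2r35 and Olfr1155 share long stretches of the same bases, so they are not separate kinds of sequence.

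Most chemoreceptor genes carried no methylated region, as far as peaks were called. MeDIP recovers stretches with few CpG sites poorly, so a gene without a region is not shown to be unmethylated. The median coding sequence held 7 CpG sites in Olfr genes and 37 in other protein-coding genes. Of 1472 genes on chromosomes 1 to 19, 438 (29.8%) had at least 1 region in the body or its flanks, and 232 (15.8%) had a region called in all 4 libraries. Of 19335 other protein-coding genes, 86.3% had a region, and of 388 zinc finger genes whose symbol begins with Zfp, wherever they lie, 91.0% had one. Chemoreceptor genes are short, so the windows were also compared by length: their 18.3 Mb held 30.4 regions per Mb, against 93.8 per Mb at the other protein-coding genes and 92.2 per Mb at Zfp genes. These counts come from 1 genome and have no test. With stricter peaks, whose score by the caller (10 times the negative log10 of p) was at least 100,, 339 regions at 289 genes were left. Taste receptors of the Tas2r family, which were not among the genes chosen, had a region at 3 of 35 genes.

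The families differed. Regions were found at 316 of 1128 Olfr genes (28.0%), 54 of 208 Vmn1r genes (26.0%), 60 of 121 Vmn2r genes (49.6%) and 8 of 15 Taar genes (53.3%). Vmn2r genes are longer, with a median of 27.1 kb against 5.99 kb for Olfr, and per Mb of window they had the fewest regions of the 4 families, 24.5 against 25.9 for Vmn1r and 32.8 for Olfr. Taar genes had the most, 128.6 regions per Mb over a window of only 0.0778 Mb. Among the 438 genes, 338 had 1 region, 77 had 2 and 23 had 3 or more. Vmn2r7 had the most, 7 regions that all lay in introns, followed by Olfr56 and Olfr643 with 5 each.

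**Figure D1:**
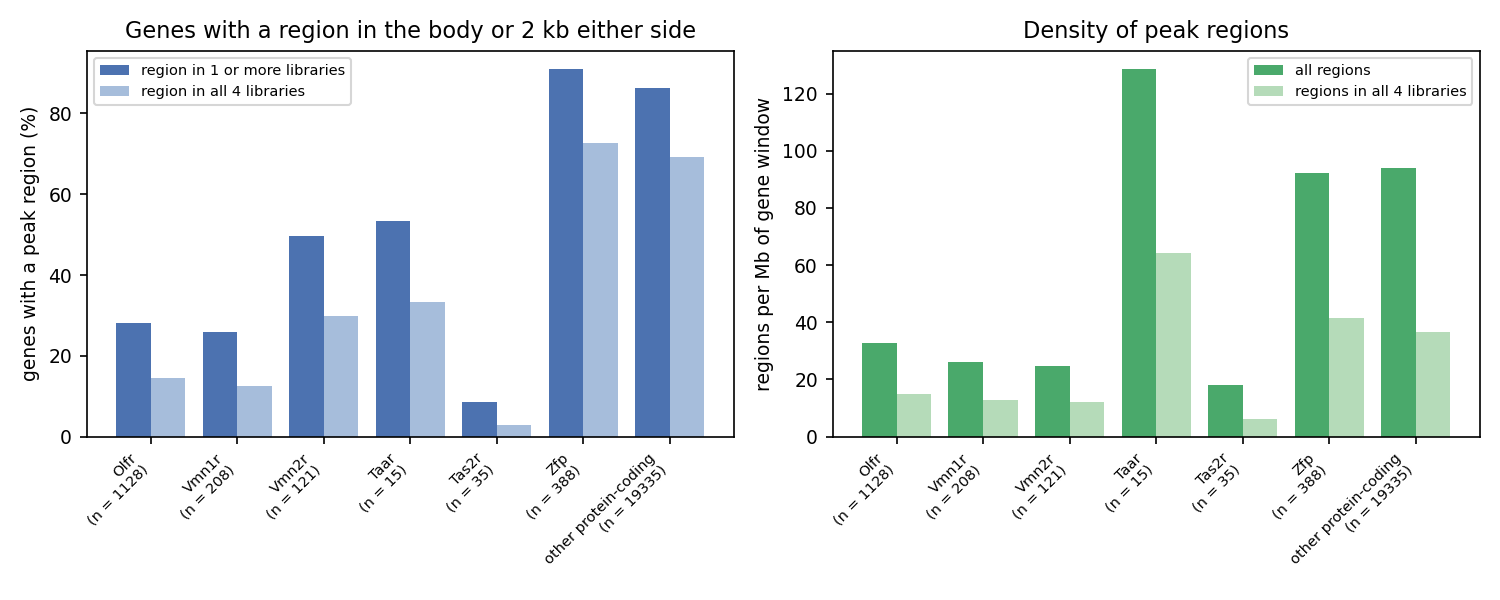
Share of genes with a peak region (left, %) and regions per Mb of gene window (right) for 4 chemoreceptor families, Tas2r, Zfp and all other protein-coding genes on chromosomes 1 to 19; dark bars count every region and light bars those called in all 4 libraries. Olfr, Vmn1r and Vmn2r stand at 24.5 to 32.8 regions per Mb, below the 93.8 of other protein-coding genes, and Taar at 128.6.

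The place of the regions within the genes differed among the families. Of 384 regions at Olfr genes, 134 overlapped coding sequence, 64 only untranslated exons, 65 only introns, and 121 lay in the flanks (55 upstream, 66 downstream). Vmn1r regions almost never touched coding sequence, 1 of 61. Of 102 Vmn2r regions 60 lay in introns and 6 overlapped coding sequence, whereas 7 of 10 Taar regions did. Start sites of the 3 larger families were rarely covered: a region lay within 500 bp of the start of 28 Olfr genes (2.48%), 5 Vmn1r genes (2.40%) and 1 Vmn2r gene (0.826%), against 13.8% of other protein-coding genes. The same held for 6 Taar genes (40.0%), a value that is not comparable. Taar gene bodies are annotated with a median of 1.05 kb, little more than the coding exon. Their start windows therefore reach into that exon and can count the regions over it. The 300-base RefSeq promoter windows of 925 Olfr genes, 183 Vmn1r genes and 114 Vmn2r genes held a median of 1 CpG each, and those of 11 Taar genes a median of 2, against 16 for other protein-coding genes.

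The number of CpG sites separated the Olfr coding sequences with and without a region. The median Olfr coding sequence held 7 CpG sites, or 0.74 per 100 bp, compared with 2.88 per 100 bp in other protein-coding genes. A region covered 3 of 274 Olfr coding sequences with 0 to 4 CpG sites (1.09%) and 15 of 535 with 5 to 9 (2.80%). The share was 16.3% of 203 with 10 to 14, 55.0% of 60 with 15 to 19, 84.0% of 25 with 20 to 24, and 93.5% of 31 with 25 or more. It rose from each class to the next, also among regions called in all 4 libraries, from 0 of 274 to 74.2% of 31. These shares count places in 1 genome and were not tested. The order was not particular to Olfr. In other protein-coding genes the median CpG per 100 bp was 3.23 with a region in all 4 libraries, 2.72 in 1 to 3 and 1.95 without one. The 3 Vmn2r coding sequences with a region in all 4 libraries held a median of 8 CpG sites, the 2 in 1 to 3 libraries 12.5, and the 116 without one 9. The only Vmn1r coding sequence with a region held 5, against a median of 4 without one.

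**Figure D2:**
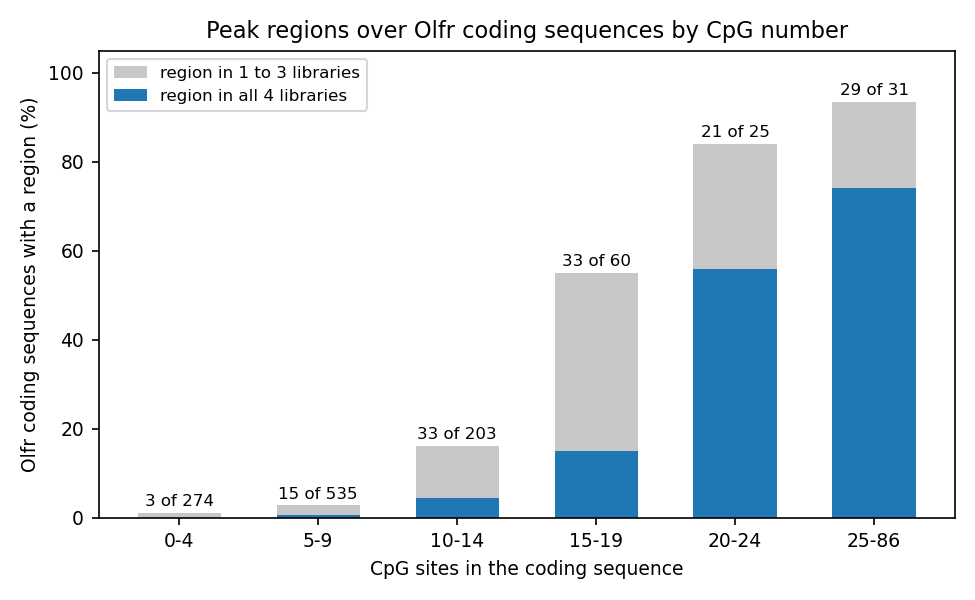
Share of Olfr coding sequences (%) with a peak region in classes of CpG number; blue is the share called in all 4 libraries and grey the share called in 1 to 3, with the number of genes above each bar. The share rises from 1.09% at 0 to 4 CpG sites to 93.5% at 25 or more.

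The exceptions at the CpG-rich end were 6 Olfr coding sequences with 20 or more CpG sites and no region. They were Olfr414, Olfr633, Olfr398, Olfr632, Olfr95 and Olfr94, which were named after their values were seen. Olfr94 and Olfr95 are neighbours on chromosome 17 and held 86 and 42 CpG sites. Their nearest region in any library was 18936 and 33043 bp away. None of the 50-base positions in either exon had an exact copy elsewhere. At the other end, Olfr1124, Olfr1310 and Olfr133 had 4 CpG sites each and a region called in 1 or 2 libraries.

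The Taar genes showed the same division on a small scale. Taar1 to Taar6 and Taar9 had a region over the coding exon and 19 to 37 CpG sites in it. The Taar7 and Taar8 genes, 8 in all, had none there and held 6 to 8 CpG sites. The 7 exons with a region were unique, with exact copies at 0.0% to 0.10% of their 50-base positions, and the 8 without one had copies at 29.6% to 72.7%. CpG number and copies thus moved together in this family, and their parts in the result cannot be told apart. Over Olfr exons with 15 or more CpG sites, 44 of 82 with a region (53.7%) and 21 of 34 without (61.8%) had no copy at all.

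A region over the coding exon was called in every library at 5 Taar genes. The region over Taar3 (chr10:23949036-23951016) held 6.14 and 6.19 CPM in WT and 5.03 and 6.07 CPM in βRapKO. That over Taar2 held 5.71 and 5.78 CPM in WT and 4.86 and 5.11 CPM in βRapKO. In both, each βRapKO library lay below the WT libraries, although the differences of −0.15 ± 0.15 (log2, SE) for Taar3 and −0.20 on the log2 scale for Taar2 did not pass the test (adjusted p = 0.903 and 0.867, edgeR). The difference at Taar3 rested on 1 library, and was −0.02 without βRapKO replicate 1 and −0.29 without βRapKO replicate 2. Taar1, a receptor for trace amines that has been described in beta cells, held 1.72 and 1.404 CPM in WT and 1.403 and 2.02 CPM in βRapKO, so that the genotypes overlapped. Taar9 held 3.13 and 2.71 CPM in WT and 2.91 and 2.74 CPM in βRapKO, which also overlapped. The coding region of Taar4 was called in 3 libraries and that of Taar5 in WT replicate 2 alone.

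**Figure D3:**
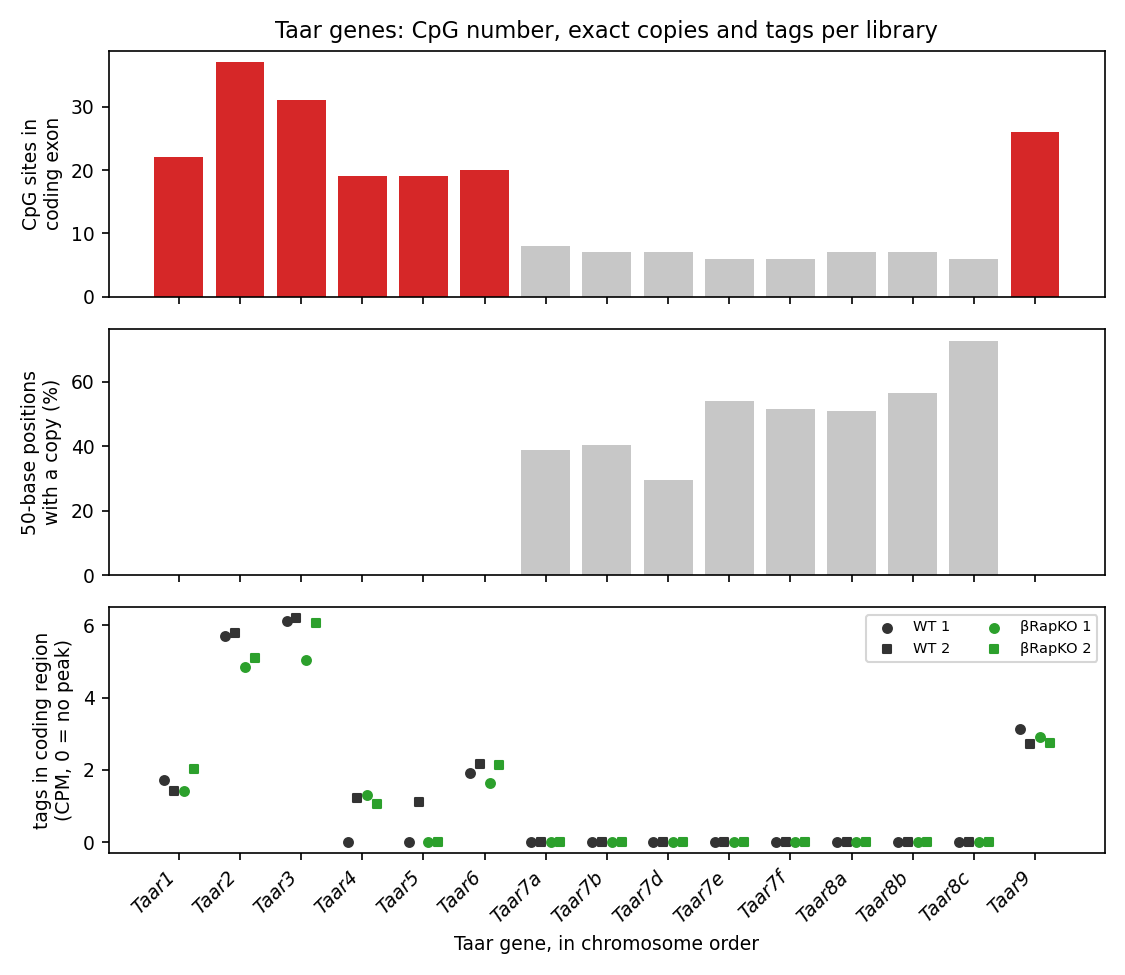
CpG sites of the coding exon (top), share of its 50-base positions with an exact copy elsewhere (middle, %) and tags of the coding region in each library (bottom, CPM, 0 where no peak was called) for 15 Taar genes in chromosome order; red bars mark exons with a region. Exons with a region hold 19 to 37 CpG sites and those without 6 to 8, and WT and βRapKO symbols lie close together.

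Repeats and recent copies made up much of what was methylated outside coding sequence. The median region at a chemoreceptor gene was 1046 bp wide and held 1.73 CpG sites per 100 bp, close to the 1152 bp and 1.60 of regions at other protein-coding genes. It was masked as repeat over 45.1% of its length, against 18.7%, and 16.3% of its 50-base positions had an exact copy elsewhere in the genome, against 0.0%. Masked length was 29.2% for Olfr, 65.3% for Vmn1r, 73.0% for Vmn2r and 18.3% for Taar. Regions over coding sequence were masked over 8.56% and regions in introns over 66.4%. How reads with several equal places were assigned is not given in the sources used here, so that tags in such regions cannot be tied to a single gene.

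The regions with the most tags were of this kind. CPM adds all tags of a region and was not divided by its width. The 6 highest regions were 2843 to 7140 bp wide, against a median of 1360.5 bp for the 262 regions called in every library. The rank is therefore not one of methylation density. Of the 20 regions with the highest CPM, 20 were masked over more than 50% of their length, and 19 had exact copies at more than 50% of their positions. The highest lay in an intron of Vmn2r35 (chr7:7793961-7799360), with 155 CpG sites in 5400 bp and copies at 96.7% of positions. It held 14.8 and 14.97 CPM in WT and 15.1 and 16.7 CPM in βRapKO. Both βRapKO libraries lay above WT by a log2 difference of 0.09 ± 0.10 (SE; adjusted p = 0.909, edgeR). A region in an untranslated exon of Vmn1r88 was second in mean, but held 18.3 CPM in WT replicate 1, 7.85 in WT replicate 2, and 15.1 and 17.1 in βRapKO. In WT replicate 2 the peak there was 2723 bp wide, against 6427 to 7022 bp in the other libraries. Downstream of Olfr31, a fully masked region held 11.8 and 13.5 CPM in WT and 12.9 and 14.5 CPM in βRapKO. Vmn2r46, Vmn1r149 and an intron of Vmn2r38 followed, with means of 10.9 to 12.2 CPM in each genotype.

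CpG density reached its highest values in such copies too, but there the calls were scattered. The region downstream of Vmn1r48 held 156 CpG sites in 2608 bp, 5.98 per 100 bp, had exact copies at 99.6% of positions and was called in WT replicate 2 and βRapKO replicate 2 only. Those at Olfr1504 and Olfr165, with 4.19 and 4.17 CpG sites per 100 bp, were called in 2 libraries and 1. Of regions over coding sequence with few copies, Olfr324 held the most tags, 6.72 and 7.34 CPM in WT and 6.16 and 6.68 CPM in βRapKO. Olfr283 followed, with 6.61 and 5.65 CPM in WT and 6.67 and 5.93 CPM in βRapKO. Both were named after their values were seen. The genotypes overlapped at Olfr283, while at Olfr324 both βRapKO libraries lay just below WT (log2 −0.13, adjusted p = 0.903, edgeR).

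The genes formed 75 clusters, joined where neighbours lay within 0.5 Mb, and each of the 33 clusters with 10 or more genes held at least 1 region. The cluster with the most, 57 regions at 49 of 129 genes, was the class I array on chromosome 7 (chr7:102476579-105369355, Olfr543 to Olfr692), whose receptors are related to those of fish. Its coding exons held a median of 11 CpG sites, against 6 in the other Olfr genes, and a region covered 30 of them (23.3%), against 103 of 998 (10.32%). The largest array, on chromosome 2 from Olfr987 to Olfr1274-ps, had 227 genes but 51 regions at 46 of them. The array on chromosome 9 from Olfr160 to Olfr986 had 26 regions at 20 of 95 genes. By contrast all 9 genes of a short array on chromosome 15, Olfr288 to Olfr279, had a region, 17 in all. Olfr281 in that array held 42 CpG sites in its coding sequence, and the region over it held 6.33 and 6.16 CPM in WT and 4.96 and 5.83 CPM in βRapKO, a log2 difference of −0.21. Summed over the regions called in all 4 libraries, the class I array held 72.5 and 76.6 CPM in WT and 67.5 and 74.4 CPM in βRapKO, so that the genotypes overlapped.

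Among receptors that have been described in islets or serve as models, 6 of the 14 in the annotation had a region. Olfr544, a receptor for azelaic acid described in alpha cells, had a region over its coding exon in every library, with 1.60 and 1.37 CPM in WT and 1.27 and 2.02 CPM in βRapKO. Olfr15, described in beta cells as a receptor for octanoic acid, had 3 regions. The one in an untranslated exon held 2.27 and 1.18 CPM in WT and 1.61 and 1.78 CPM in βRapKO, and the one over the coding exon was called in all libraries but WT replicate 1. In neither gene did the genotypes separate, and the log2 differences were 0.15 ± 0.26 and 0.01 ± 0.30 (SE). The 3 regions at Taar5 were called in 1 or 2 libraries each, the one upstream in both WT libraries only. Vmn2r116, the receptor of the pheromone ESP1, had an intronic region called in both WT libraries only, at 1.17 and 0.798 CPM. No region was found at Olfr78 and Olfr558, receptors of short-chain fatty acids with 16 and 14 CpG sites in the coding sequence, nor at Olfr821, Olfr16, Olfr17, Olfr73, Olfr160 and Vmn2r26. Of these, the nearest region lay 6450 bp from the exon of Olfr78.

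The genotypes were then compared to ask whether loss of Raptor goes with a change of methylation at these genes. No region at a chemoreceptor gene passed the test, and the share of regions below WT was close to that over all regions. Of the 557 regions, 262 (47.0%) had a peak in every library, against 40.3% of all 186169 regions on chromosomes 1 to 19, X and Y, and these 262 were tested. None of them had an FDR under 0.05 with a fold-change above 1.5 by edgeR's quasi-likelihood test, as was the case for 0 of all 75052 regions tested (0.0%). The smallest adjusted p among the 262 was 0.381. At an unadjusted p under 0.05, 7 of the 262 were lower in βRapKO, where 3.93% of all regions tested were, and 1 of the 262 was higher, where 1.88% of all were. Both counts are small and fall below those shares. By fold-change alone, 3 were lower and 1 was higher by more than 1.5-fold (1.77% and 1.29% of all regions tested). DESeq2 found 0 of the 262 past the FDR, with 2 lower and 1 higher at an unadjusted p under 0.05. The shares of all regions tested by DESeq2 are not given here.

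Small differences leaned towards lower values in βRapKO, at chemoreceptor genes as elsewhere. Of the 262 regions 153 (58.4%) lay below WT, against 60.8% of all regions tested, and the median log2 fold-change was −0.05 against −0.06. Both βRapKO libraries lay below both WT libraries at 64 regions and above them at 30, where 25.3% and 11.6% of all regions tested did so. The lean depended on the scaling. Both βRapKO libraries had a smaller share of their tags in peaks than either WT library. The part of that difference in the lean was not tested. With TMM normalization 48.5% of the 262 lay below WT, and with the tags in peaks as library size 28.2% did. The shares of all regions tested with these scalings are not given here, so these values cannot be read as particular to chemoreceptor genes. Summed over all 557 regions the tags came to 1063 and 1120 CPM in WT and 994 and 1085 CPM in βRapKO, a log2 ratio of −0.07 (p = 0.667, exact two-sided permutation test, which cannot go below 0.3333 with 2 libraries against 2). Without βRapKO replicate 1 the log2 ratio was −0.0081, and without βRapKO replicate 2 it was −0.13. In these sums a region without a peak counts as 0. Over the 262 regions called in every library the sums were 916 and 887 CPM in WT and 855 and 895 CPM in βRapKO. Their log2 ratio was −0.04, and the genotypes overlapped.

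By family, 112 of 176 Olfr regions (63.6%), 26 of 51 Vmn2r regions (51.0%) and 4 of 5 Taar regions lay below WT, while 11 of 30 Vmn1r regions (36.7%) did. Median log2 fold-changes were −0.07, −0.01, −0.12 and 0.03 in the same order. Differences between the families were not tested. The split went with the share of exact copies as well: 68.2% of 44 regions without a copy, 58.9% of 129 with some and 52.8% of 89 with copies at more than 50% of positions lay below WT. Its part in the family values was not tested.

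**Figure D4:**
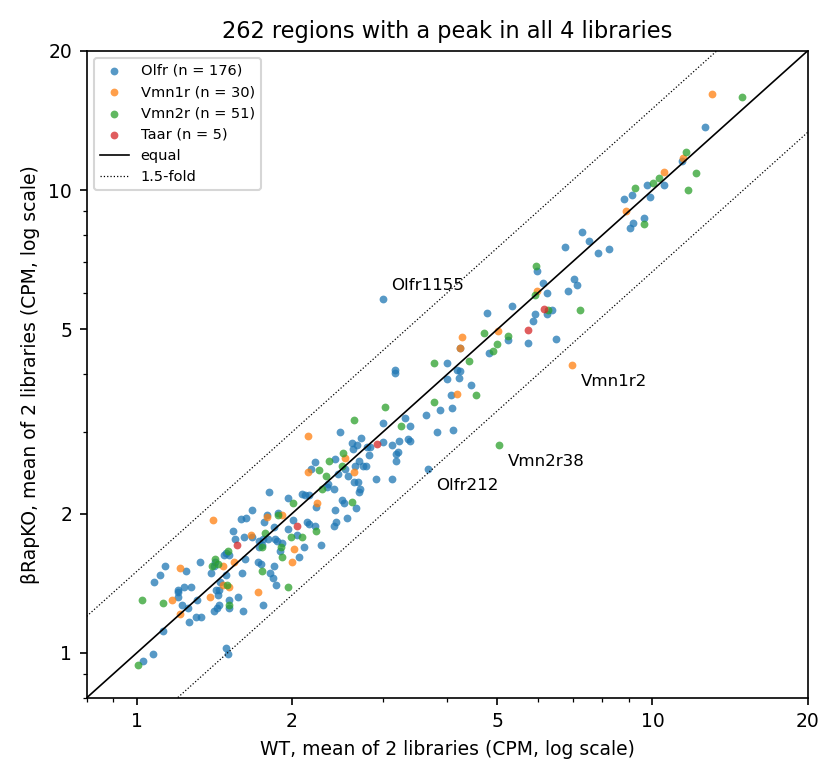
Mean CPM of 2 WT libraries (x axis) against 2 βRapKO libraries (y axis), both on log scales, for the 262 regions called in every library, coloured by family; the solid line marks equal values and dotted lines 1.5-fold. Regions follow the line of equal values, with Olfr1155 above the dotted lines and Vmn2r38, Vmn1r2 and Olfr1257 (without a label) below them.

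The largest rise was at an untranslated exon of Olfr1155 (chr2:87938746-87941782), 3037 bp that were masked over 94.6% and had copies at 80.4% of positions. Its values were 3.21 and 2.81 CPM in WT and 6.06 and 5.59 CPM in βRapKO, a log2 fold-change of 0.96 ± 0.17 (SE; adjusted p = 0.381, edgeR). The groups did not overlap. The peak was wider in βRapKO, 2731 and 2699 bp against 1458 and 1540 bp in WT, and per kb of peak the log2 difference was 0.10. The coding exon of Olfr1155, with 6 CpG sites, had no region. At an untranslated exon of Olfr313 the values were 1.25 and 1.02 CPM in WT and 1.57 and 1.51 CPM in βRapKO (adjusted p = 0.858), without overlap, but per kb of peak the log2 difference turned to −0.41. Among regions with at least 50 tags in every library, those at Vmn1r83, Olfr1451 and Olfr1459 came next, with log2 fold-changes of 0.46, 0.37 and 0.35. At all 3 the mean rested on βRapKO replicate 1, which held 3.42, 5.13 and 5.03 CPM against 2.47, 3.05 and 3.02 CPM in replicate 2. Without it the log2 fold-changes were 0.20, −0.05 and −0.06.

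Among regions with at least 50 tags in every library, the lowest log2 fold-changes were at Vmn2r38, Vmn1r2, Olfr212 and Olfr18. Of the regions with fewer tags, one downstream of Olfr1257 had a log2 fold-change of −0.63 ± 0.28 (SE; adjusted p = 0.858, edgeR), with 1.09 and 1.92 CPM in WT and 0.924 and 1.06 CPM in βRapKO. It was named after its values were seen. Over coding sequence of Vmn2r38 the log2 fold-change was −0.83, but WT replicate 1 alone stood apart, with 6.53 CPM against 3.57, 3.18 and 2.43 CPM in WT replicate 2 and the βRapKO libraries. Its peak was 2769 bp wide there and 1073 to 1136 bp in the others, and without that library the log2 difference was −0.35. Downstream of Vmn1r2 the values were 7.54 and 6.45 CPM in WT and 3.87 and 4.52 CPM in βRapKO, a log2 fold-change of −0.73 ± 0.16 (SE; adjusted p = 0.506). Here too the peaks differed in width, and per kb of peak the log2 difference was −0.03. In an intron of Olfr212 (chr6:116507799-116508779) the values were 3.75 and 3.57 CPM in WT and 2.29 and 2.71 CPM in βRapKO, −0.55 ± 0.18 (log2, SE; adjusted p = 0.826). In an intron of Olfr18 they were 6.64 and 6.38 CPM in WT and 4.76 and 4.80 CPM in βRapKO, −0.45 ± 0.14 (log2, SE; adjusted p = 0.820). At these last 2 regions the groups did not overlap, and per kb of peak the log2 differences were −0.56 and −0.63.

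Calls in 1 genotype only were as rare as elsewhere. A peak in both WT libraries and no βRapKO library was found at 24 of the 557 regions (4.31%), where 4.16% of all regions had that pattern. A peak in both βRapKO libraries alone was found at 7 (1.26%), where 1.58% of all had it. With stricter peaks these numbers were 9 and 10 of 339 regions, so that WT no longer had more. The shares of all regions with stricter peaks are not given here, so this cannot be read as particular to chemoreceptor genes. Regions called in 1 genotype only held few tags, a median of 31.8 in the 24 and 32 in the 7. The 262 regions called in every library held a median of 67.5. WT replicate 2, the deepest library, was the only one with a peak at 52 regions, against 20 to 30 for the other libraries. The strongest call in WT alone was in an intron of Vmn2r60, with 109 and 106 tags (4.26 and 3.38 CPM). Over coding sequence, Olfr323 had 50 and 84 tags and Olfr71 had 57 and 74 tags in WT, both in unique sequence with 41 and 37 CpG sites. A region upstream of Vmn1r200, which lies at Vmn1r199 too, had 34 and 56 tags. In βRapKO alone the most tags were at Vmn2r97, 51 and 62, followed by Olfr1417 with 35 and 46, Olfr65 with 32 and 34, and Vmn1r233 with 29 and 35. These differences in calling have no test, since tags outside peaks were not used here.

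**Figure D5:**
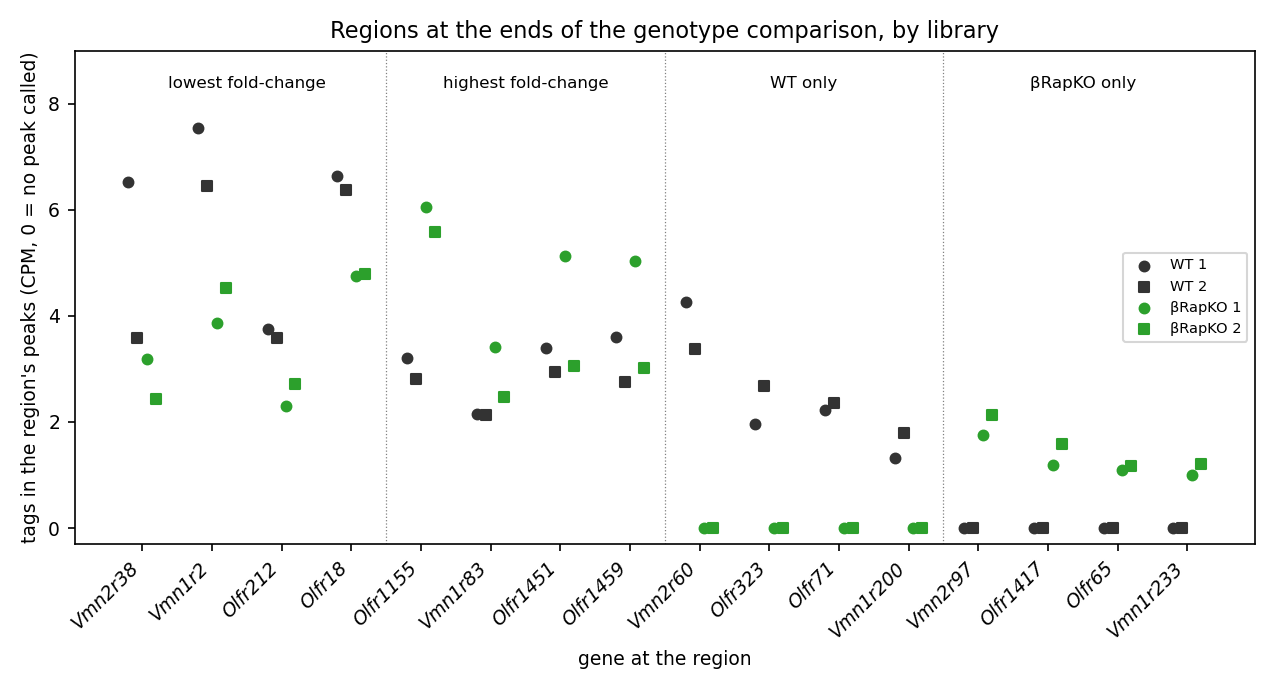
Tags in each library (CPM, 0 where no peak was called) at the 4 lowest and 4 highest fold-changes among regions with at least 50 tags in every library, and the 4 strongest calls in WT only and in βRapKO only; circles and squares are replicates 1 and 2, black is WT and green βRapKO. Olfr1155 lies at 2.81 to 3.21 CPM in WT and 5.59 to 6.06 CPM in βRapKO, whereas Vmn2r38 is set apart by WT replicate 1 alone.

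The genes that serve these receptors were looked at in the same way, from lists of partners. The lists were olfactory transduction (15 genes), receptor choice and trafficking (16 genes) and vomeronasal partners (16 genes), and none of their regions passed the FDR. Of 41 regions tested at olfactory transduction genes, 28 (68.3%) lay below WT, against 60.8% of all regions tested, with a median log2 fold-change of −0.12 against −0.06. At an unadjusted p under 0.05, 3 were lower and 0 higher, where 3.93% and 1.88% of all were. The lowest was near Gng13, a G protein gamma subunit, with 5.78 and 5.97 CPM in WT and 1.54 and 4.56 CPM in βRapKO (log2 −0.95 ± 0.40, SE; adjusted p = 0.858). The value of βRapKO replicate 1 was the lowest, and without it the log2 difference was −0.37. The highest was at Gnb1, a G protein beta subunit, with a log2 fold-change of 0.23. Of 48 regions at genes of receptor choice and trafficking, 30 (62.5%) lay below WT, with 0 lower and 1 higher at an unadjusted p under 0.05. Their log2 fold-changes ran from −0.44 at Ehmt1, which methylates histone H3, to 0.61 at Ebf4, an EBF transcription factor, where per kb of peak the difference turned to −0.24 and without βRapKO replicate 2 it was 0.28. Of the 16 vomeronasal partners only Trpc2, Gnai2, Gnao1 and H2-M10.2 had a region, and the Fpr-rs genes and the other H2-M genes listed had none. Trpc2, the transduction channel of vomeronasal neurons, had the lowest fold-change, −0.47 on the log2 scale, with 4.46 and 5.55 CPM in WT and 3.08 and 4.18 CPM in βRapKO, without overlap (adjusted p = 0.858). Without βRapKO replicate 1 it was −0.26, and without WT replicate 2 −0.30. Gnao1, the G protein of Vmn2r neurons, had the highest, 0.28, which turned to −0.19 per kb of peak and was 0.05 without WT replicate 1 and 0.56 without WT replicate 2.

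The 2 kb limit of the gene window was not a natural boundary. There were 44 regions 1500 to 2000 bp from a gene body, of which 23 were called in all 4 libraries at a median of 2.23 CPM, and 54 regions 2001 to 2500 bp away, of which 29 were called in all 4 at a median of 2.18 CPM.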

How the data were processed

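Methylated DNA of islets was measured by MeDIP-seq in 2 WT and 2 βRapKO libraries. The authors aligned 50-base reads with Bowtie2 2.2.5 and called peaks in each library with MACS. Per the file headers there was no control, the cutoff on p was 1e-05, and duplicates at a position were reduced to 1 tag. The labels give its version as 0.14.2 and the file headers as 1.4.2. Both mm9 and mm10 are named in the labels, and the peak positions were those of mm10. The authors deposited for each peak a raw count of tags, a score made from the log10 of its p, and a fold enrichment over the local background, which is a ratio. The score was used for the alternative with stricter peaks, and a region's fold enrichment was not tested.

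Peaks were joined across libraries on chromosomes 1 to 19, X and Y, tags of a library's peaks in a region were added, and genes came from GENCODE M21 (GRCm38). The 75052 regions called in every library were fitted together with edgeR 4.0.16 (R 4.3.3, quasi-likelihood, Benjamini-Hochberg adjustment), with the tags after removal of duplicates as library size. CPM was calculated from the same sizes, and intervals and tests cover these libraries only. An exact copy is a 50-base sequence found elsewhere on either strand. Promoter windows of 300 bases came from RefSeq (GRCm38). Members, lists and named genes were chosen with earlier results of these data known. Named were the regions with the highest CPM, the lowest and highest fold-changes with at least 50 tags per library, the smallest p, the strongest calls in 1 genotype, the most CpG sites, the listed receptors, the clusters with the most regions, Rptor, and the ends of the partner lists. Olfr151 was not in the protein-coding annotation.

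The alternatives were TMM, tags in peaks or tags before removal of duplicates as library size, DESeq2 1.42.0, limma 3.58.1 on log2(CPM + 0.5), tags per kb of peaks, a replicate block, at least 50 tags in every library, autosomes alone, stricter peaks (score of at least 100), an overlap of 50% of the shorter peak, other gene windows and each library left out. Other statistics used Python 3.11.15, pandas 2.3.3 and SciPy 1.17.1.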

Additional observations from a re-analysis of the deposited data

How the results depend on the processing

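No region at a chemoreceptor gene passed the FDR under any alternative run. The number lower and higher in βRapKO at an unadjusted p under 0.05, 7 and 1 as reported, was 4 and 3 with TMM normalization, 1 and 7 with tags in peaks as library size, 2 and 1 with DESeq2, 37 and 1 per kb of peaks, 6 and 3 with stricter peaks, and 11 and 5 with a gene window of 5 kb. It was 4 and 0 for regions with copies at no more than 50% of positions, which was chosen after seeing the data. For the alternative fits the shares of all regions tested are not given here, so these counts were not set against them. Per kb of peaks the median log2 fold-change was −0.160 at chemoreceptor genes and −0.165 over all regions tested. Without each library in turn, with the spread pooled over both genotypes, the number lower was 4 to 10 and the number higher 2 to 5. It was 10 and 5 without βRapKO replicate 2, 4 and 2 without βRapKO replicate 1, 6 and 5 without WT replicate 1, and 6 and 3 without WT replicate 2.

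The lean towards lower values turned with the scaling. The median log2 fold-change was 0.0097 with TMM normalization, 0.11 with tags in peaks, 0.0084 with DESeq2 and −0.16 per kb of peaks, and the share below WT was 48.5%, 28.2%, 48.5% and 79.8%. That share was 52.7% to 61.5% without each library. Apart from the median per kb of peaks, these values are not given here for all regions tested. The summed CPM turned to a log2 ratio of 0.090 with tags in peaks. Stricter peaks left 339 regions at 289 genes, with 9 called in WT only and 10 in βRapKO only, where 24 and 7 were reported. The shares of all regions with stricter peaks in these patterns are not given here. Leaving out each library was added for the numbers of regions and genes and for the summed CPM after seeing the data. It left 505 to 537 regions at 405 to 427 genes, fewest without WT replicate 2, and log2 ratios of summed CPM of −0.13 to −0.0081. The cause was not tested.

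Replicate numbers occur in both genotypes, but the correlation of deviations of same-numbered libraries was 0.0474, and nothing in the labels ties them. With a replicate block, 8 regions were lower and 1 higher, none past the FDR.

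Over all peaks the median width was 1102 and 1150 bp in βRapKO, against 1059 and 938 bp in WT. The median log2 fold-change per kb over all regions tested was −0.165, so a turn to lower values per kb is not particular to the regions named. Per kb of peaks the log2 fold-change turned to −0.14 at Vmn2r35, −0.23 at Vmn1r88, −0.10 at Olfr31, −0.22 at Vmn2r46, −0.34 at Olfr1451, −0.063 at Olfr1459, −0.41 at Olfr313, −0.28 at Taar1, −0.24 at Ebf4 and −0.19 at Gnao1. With tags in peaks it was 0.000206 at the intron of Vmn2r38, 0.0077 at Taar3 and 0.12 at Taar9, and at Taar9 it was 0.021 with TMM and 0.019 with DESeq2. Without each library it ran from −0.18 to 1.03 at Vmn1r88, −0.12 to 0.21 at Vmn1r149, −0.050 to 0.70 at Olfr1451, −0.064 to 0.67 at Olfr1459, −0.42 to 0.52 at Olfr15, −0.22 to 0.45 at Olfr544, −0.14 to 0.38 at Taar1 and −0.15 to 0.059 at Taar9. It kept its sign but moved over 1.5 times at Taar3 (−0.29 to −0.023), Vmn1r83 (0.20 to 0.67), Gng13 (−1.93 to −0.37), Ebf4 (0.28 to 0.88), Trpc2 (−0.70 to −0.26), Gnao1 (0.055 to 0.56), Gnb1 (0.15 to 0.32), Olfr31 (0.017 to 0.22), Olfr313 (0.30 to 0.59), Vmn2r35 (0.019 to 0.16), Vmn2r46 (0.0054 to 0.11), and the coding sequence (−1.22 to −0.35) and intron (−0.23 to −0.095) of Vmn2r38. Those at Olfr1155, Vmn1r2, Olfr212 and Olfr18 kept their sign without each library. With 2 libraries per genotype and peaks of few tags, small differences could not be shown. Large ones did not pass either: the log2 fold-change of 0.96 at Olfr1155 had an adjusted p of 0.381 (edgeR's quasi-likelihood test). A region that did not pass is therefore not shown to be unchanged.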

Other observations

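Chemoreceptor genes on the X chromosome lay outside the rule. Of 9 such genes, Vmn2r121 alone had regions. One (chrX:124122931-124123670) was called in both WT libraries only, with 39 tags in each, and the other (chrX:124130379-124130873) in βRapKO replicate 2 only, with 29 tags.

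Of the 557 regions, 15 lay at more than 1 chemoreceptor gene, and 16 also lay within 2 kb of another protein-coding gene, so that a region cannot always be given to a single gene.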
